A study of Homo sapiens with 4 samples.

Results

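The genes described here are the cytosolic and mitochondrial chaperones, a list of 45 genes chosen by name: the HSP70 and HSP90 machines with their cochaperones, the chaperonin CCT, prefoldin, the mitochondrial folding proteins, the small heat shock protein HSPB1 and the heat shock factors HSF1 and HSF2. All 45 were found among 16504 gene symbols, and all 45 reached a mean of at least 1 FPKM (fragments mapped to a gene, divided by its length and by the size of the library), the floor set for testing, which 10968 genes passed. RNA-seq was performed on 4 libraries labelled NB4, which names a human cell line from an acute promyelocytic leukemia. The labels give 2 control libraries with CEBPG present (NC in their titles) and 2 libraries with CEBPG knockdown (CEBPG3 in their titles). CEBPG encodes the gamma member of the C/EBP family, basic leucine-zipper proteins that bind DNA as dimers. The study describes its controls as shRNA control cells and its knockdown as a short hairpin RNA delivered by a puromycin-selected lentivirus, so each library came from a population of infected cells. No time point or further treatment is given in the labels. Nothing in the labels says that replicates were separate cultures, so p-values measure the spread between these libraries, which may be technical.

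Gene values summed to between 345340 and 366139 FPKM per library, and read depth was unknown. In the check of the targeted gene, CEBPG measured 17.1 and 18.1 FPKM in the controls and 6.91 and 7.96 FPKM after knockdown, 42.2% of the control mean (log2 fold change -1.14, standard error 0.082, limma adjusted p = 0.000836). The markers went against the labelled cell type. Of 7 promyelocytic granule genes, 4 or 5 were under 1 FPKM in each library, with AZU1 between 0.370 and 0.570 FPKM and PRTN3 between 0.0897 and 0.188 FPKM. LYZ, at 15.0 to 20.1 FPKM, was the only gene of that list at 10 FPKM or more, and SRGN was at 3.87 to 4.79 FPKM. By contrast, 12 of 13 erythroid genes were at 10 FPKM or more in every library, and the globin HBG2 was at 2890 to 3766 FPKM. The summed level of the 13 erythroid genes was 8024 to 8490 FPKM in the controls and 8926 to 9489 FPKM after knockdown, and of 9 myeloid surface and regulator genes 41.7 to 42.5 FPKM and 71.6 to 75.6 FPKM. Most of the latter difference was CD68, at 20.6 and 18.5 FPKM in the controls and 47.3 and 43.9 FPKM after knockdown, while 6 of these 9 genes were under 1 FPKM in every library and the median of the list was 0.259 and 0.342 FPKM against 0.382 and 0.233 FPKM. The part of these markers in the results on chaperones was not tested.

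Chaperones hold newly made or unfolded proteins away from aggregation and let them fold. In the cytosol HSP70 proteins bind short hydrophobic stretches in a cycle of ATP hydrolysis that J-domain (HSP40) proteins start and exchange factors reset. Many clients then pass to HSP90, which matures kinases and steroid receptors, while actin and tubulin are delivered by prefoldin to the ring-shaped chaperonin CCT. Mitochondria carry their own HSP70, HSP60 with its lid HSP10, and HSP90. Heat shock factor HSF1 raises many of these genes under stress by binding heat shock elements in their promoters, and cancer cells often carry high levels of them.

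Upon CEBPG knockdown 5 of the 6 genes of the cytosolic HSP70 group, which includes the HSP110-type exchange factors, fell, HSPE1 of the mitochondrial HSP60 system fell, the small heat shock protein gene HSPB1 rose, and no difference was called for HSP90 itself, any subunit of CCT or the mitochondrial HSP70 gene HSPA9. With each library scaled to the same total, HSP90AB1 and 3 CCT subunits were called lower, as given with each group. Of the 45 members, 10 fell and 1 rose at an adjusted p under 0.05 (limma). Among all 10968 genes 20.9% were called, 10.9% as higher and 9.99% as lower, against 24.4%, 2.22% and 22.2% of the members. The share of members called in either direction was thus near the background, while calls among members went mostly downward. Among genes averaging 10 FPKM or more, where 42 members lay, 12.7% were called lower and 12.6% higher. The knockdown values both lay below the lowest control value in 24 members (53.3%, against 30.5% of all genes) and both above the highest control value in 10 (22.2%, against 34.3%). The median log2 fold change of the 45 members was -0.08, beside 0.02 over all genes tested, and 32 members (71.1%) had a value below 0, beside 47.3% of all genes. Changes were small, from -0.58 to 0.29 on the log2 scale, and none of the 45 passed an absolute log2 fold change of 1, which 80 of all genes tested did.

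The calls rested on few libraries. HSPA1A, HSPA1B and HSPA4 kept an adjusted p under 0.05 whichever library was left out (limma). Without knockdown replicate 1, and again without knockdown replicate 2, these 3 were the members called, in place of 11. That is 6.67% of the members, beside 7.39% and 7.90% of all genes tested in the same fits, so calls were lost over all genes alike. Without control replicate 1, HSPA8, DNAJA1 and FKBP4 were also no longer called, and without control replicate 2, PFDN4 and HSPB1 were not. Members together held 2.32% and 2.36% of all FPKM in the controls and 2.15% and 2.18% after knockdown, so their summed share was lower in both knockdown libraries.

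**Figure D1:**
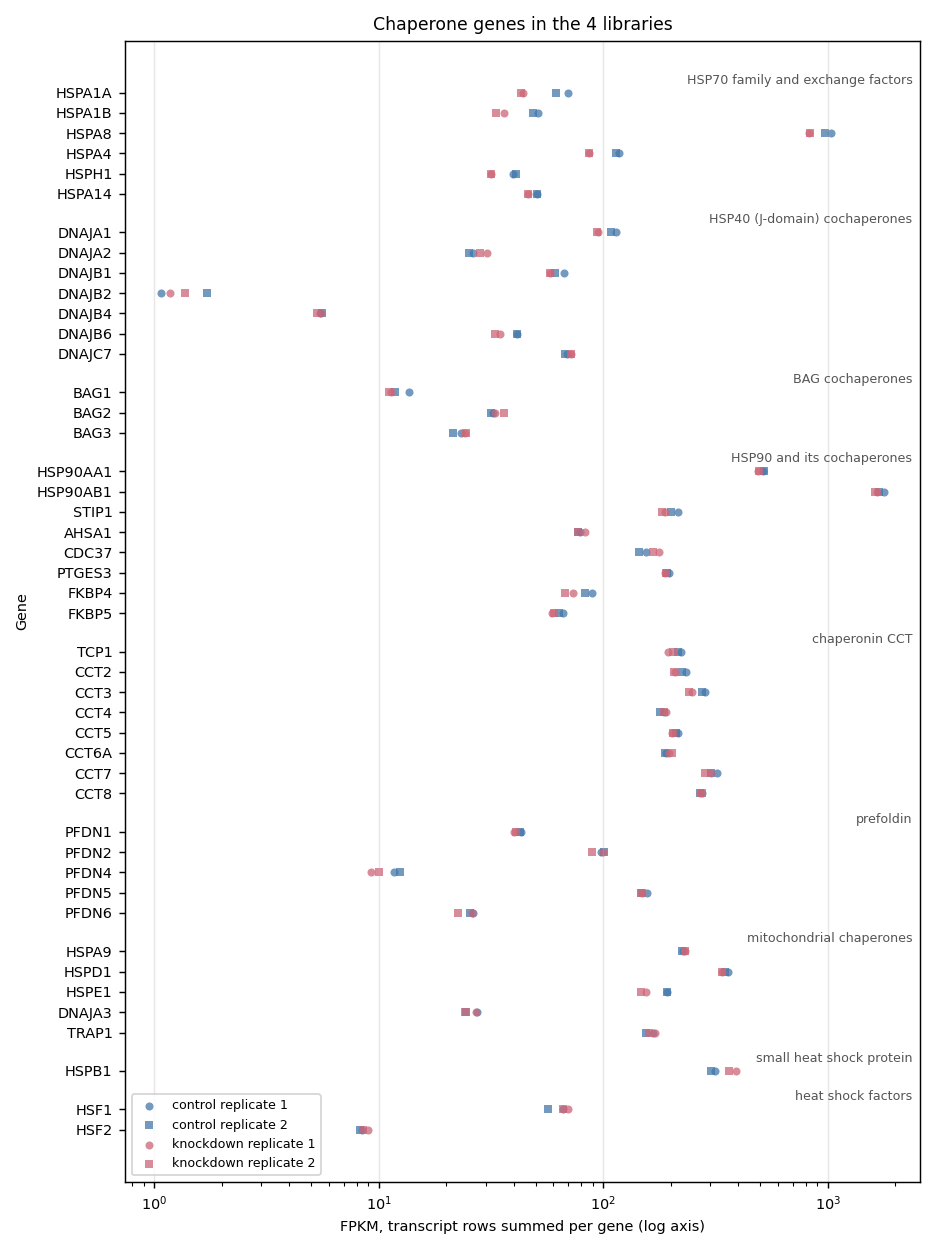
Level of the 45 chaperone genes in each of the 4 libraries, in FPKM on a log axis, grouped by role; blue marks are control and red marks knockdown libraries, circles replicate 1 and squares replicate 2. HSP90AB1 and HSPA8 lie furthest right, at 1621 to 1786 and 822 to 1037 FPKM, DNAJB2 lies near 1 FPKM, and for all 6 genes of the cytosolic HSP70 group (HSPA1A, HSPA1B, HSPA8, HSPA4, HSPH1 and HSPA14) both red marks lie left of both blue marks. The same held for 30.5% of all genes tested.

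**Figure D2:**
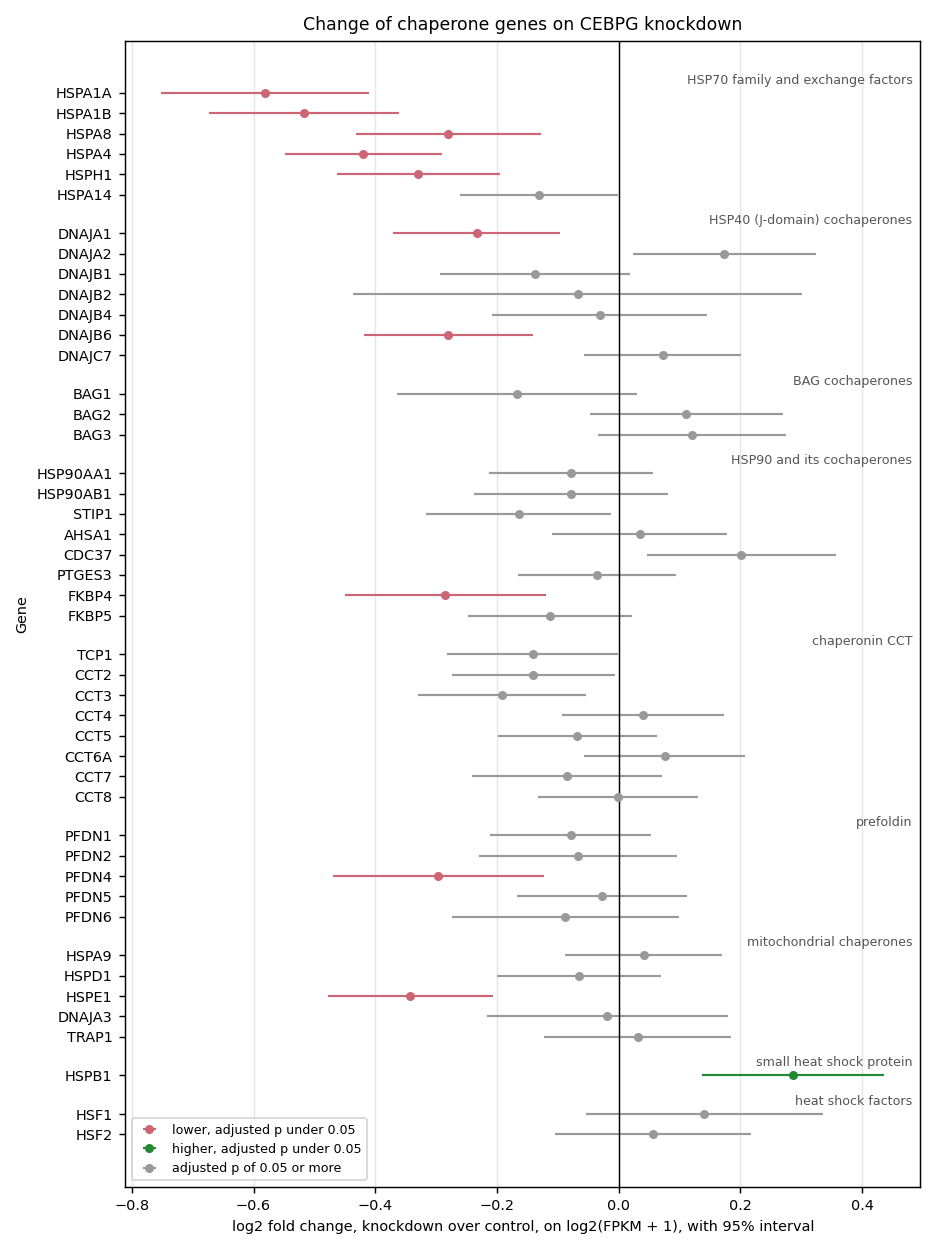
Log2 fold change of each chaperone gene, knockdown over control on log2(FPKM + 1), with its 95% confidence interval from limma, grouped by role. The 10 genes that fell are red, HSPB1, which rose, is green, and the other 34 are grey; the lowest value is that of HSPA1A at -0.58.

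HSPA1A and HSPA1B encode the stress-inducible HSP70 and are neighbours on chromosome 6 (HSPA1A at 31815543 to 31817946 and HSPA1B at 31827738 to 31830254, both on the plus strand, hg38, GENCODE 44). Their longest open reading frames were identical at 1922 of 1926 bases and encoded the same 641 residues, so few coding bases tell their reads apart and their separate values are uncertain. HSPA1A was at 69.4 and 61.5 FPKM in the controls and 43.8 and 42.95 FPKM after knockdown. HSPA1B was at 51.4 and 48.7 FPKM in the controls and 36.02 and 33.3 FPKM after knockdown. For both genes each knockdown library lay below each control library. The means fell from 65.5 ± 5.57 to 43.4 ± 0.566 FPKM (SD, n = 2 per group) for HSPA1A and from 50.03 ± 1.91 to 34.7 ± 1.93 FPKM for HSPA1B. The log2 fold change was -0.58 for HSPA1A (standard error 0.072, limma adjusted p = 0.00377) and -0.52 for HSPA1B (standard error 0.066, adjusted p = 0.00402). Summed to a single feature, they fell from 121 and 110.2 FPKM to 79.8 and 76.2 FPKM, 67.5% of the control mean (log2 fold change -0.56, limma adjusted p = 0.00336). The sum depends less on how reads were divided between them, but how shared reads were counted is not given in the sources used here.

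HSPA8, the constitutive cytosolic HSP70 (HSC70), was far more abundant. Its values were 1037 and 975 FPKM in the controls and 822 and 834 FPKM after knockdown, which did not overlap. It fell by 0.28 on the log2 scale (standard error 0.064, limma adjusted p = 0.0254), to 82.3% of the control mean. GENCODE 44 lists 16 processed pseudogenes named after HSPA8, and how the counting treated reads shared with them is not given in the sources used here. The level of HSPA8 was 8.59 and 8.85 times that of HSPA1A and HSPA1B together in the controls and 10.3 and 10.9 times after knockdown. No test was run on this ratio or on the other ratios between genes given here.

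HSPA4 and HSPH1 are HSP110-type relatives of HSP70 that release its nucleotide. HSPA4 was at 117 and 115 FPKM in the controls and 86.1 and 86.7 FPKM after knockdown. Its replicates were close together and its groups well apart, with a log2 fold change of -0.42 (standard error 0.054, limma adjusted p = 0.00432). HSPH1 was at 39.6 and 40.7 FPKM in the controls and 31.7 and 31.8 FPKM after knockdown. It changed by -0.33 (standard error 0.057, limma adjusted p = 0.0106), again without overlap. The transcript rows behind that sum did not repeat between the control libraries: NM_006644 was at 37.7 and 10.02 FPKM, NM_001286503 at 1.83 and 15.99 FPKM and NM_001286504 at 0.0585 and 14.7 FPKM. Taken by its most abundant row alone, HSPH1 was not called (adjusted p = 0.668, limma). HSPA14, an HSP70 relative at the ribosome, was the sixth gene of this group and was not called. It was at 51.0 and 50.6 FPKM in the controls and 46.1 and 46.5 FPKM after knockdown (log2 fold change -0.13, limma adjusted p = 0.133). In the HSP70 group as a whole 5 of 6 genes fell (83.3%, against 9.99% of all genes tested) and none rose. This counts HSPA1A and HSPA1B apart, although their separate values are uncertain. The summed level of the 6 went from 1366 and 1291 FPKM to 1066 and 1075 FPKM.

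**Figure D3:**
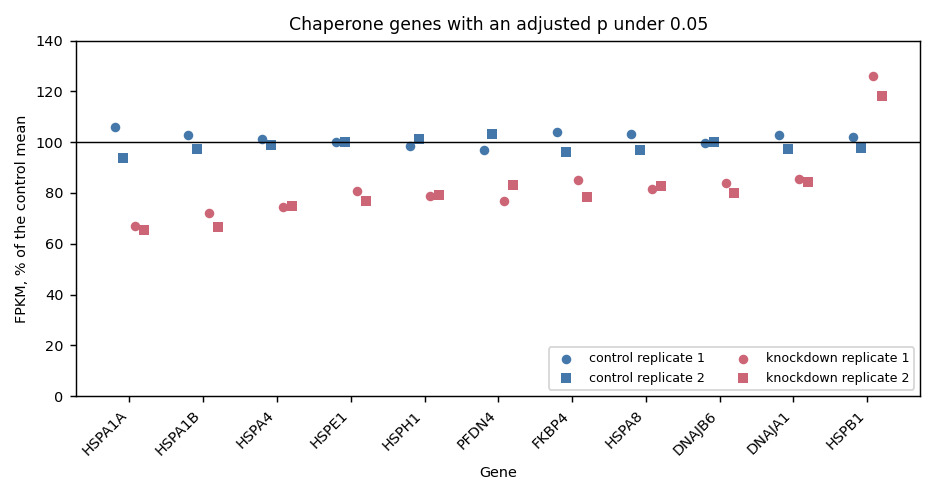
FPKM of the 11 chaperone genes with an adjusted p under 0.05, in each library as a percentage of the gene's control mean; blue is control, red is knockdown, circles replicate 1 and squares replicate 2. The red marks of 10 genes lie below 100%, lowest for HSPA1A, whose knockdown mean was 66.2% of control, and those of HSPB1 lie above it.

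The promoters of the members that changed and that hold a heat shock element are shown here because HSF1 acts through such elements. Sequences are from RefSeq (GRCh38.p14), where a window from 250 bases before to 50 bases after the start site was found for 40 of the 45 members. The members without a window were PFDN2, CCT6A, HSPA14, HSF1 and FKBP4, of which FKBP4 fell. Elements were searched on both strands as GAANNTTC (head to head), TTCNNGAA (tail to tail) and the longer GAANNTTCNNGAA, which contains both shorter ones. The 250 bases before the start site are printed 5′ to 3′ on the strand of the gene, in lower case with matches to any of these in capitals. They lie at chr6:31815293-31815542 (plus strand) for HSPA1A, chr6:31827488-31827737 (plus) for HSPA1B, chr11:123062137-123062386 (minus) for HSPA8, chr9:33025023-33025272 (plus) for DNAJA1, chr7:157336754-157337003 (plus) for DNAJB6 and chr7:76302423-76302672 (plus) for HSPB1.
HSPA1A: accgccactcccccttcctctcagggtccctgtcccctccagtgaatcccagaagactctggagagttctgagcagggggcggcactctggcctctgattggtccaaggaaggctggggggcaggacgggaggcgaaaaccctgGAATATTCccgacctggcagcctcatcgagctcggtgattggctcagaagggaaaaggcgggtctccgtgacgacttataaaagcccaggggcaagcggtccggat
HSPA1B: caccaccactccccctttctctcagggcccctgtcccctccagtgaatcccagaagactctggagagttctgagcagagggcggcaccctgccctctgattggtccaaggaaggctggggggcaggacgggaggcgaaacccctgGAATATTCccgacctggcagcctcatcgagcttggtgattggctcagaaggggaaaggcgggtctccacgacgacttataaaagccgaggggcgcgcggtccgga
HSPA8: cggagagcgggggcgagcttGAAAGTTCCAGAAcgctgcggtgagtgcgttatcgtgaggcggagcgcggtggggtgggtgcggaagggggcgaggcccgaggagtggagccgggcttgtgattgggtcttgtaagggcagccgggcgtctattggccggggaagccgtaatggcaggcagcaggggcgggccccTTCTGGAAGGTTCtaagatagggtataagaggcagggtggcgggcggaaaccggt
DNAJA1: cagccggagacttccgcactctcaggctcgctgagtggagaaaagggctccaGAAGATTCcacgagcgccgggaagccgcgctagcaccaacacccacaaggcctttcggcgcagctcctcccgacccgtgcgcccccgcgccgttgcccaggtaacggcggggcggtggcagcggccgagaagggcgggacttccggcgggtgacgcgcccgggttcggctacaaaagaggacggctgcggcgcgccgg
DNAJB6: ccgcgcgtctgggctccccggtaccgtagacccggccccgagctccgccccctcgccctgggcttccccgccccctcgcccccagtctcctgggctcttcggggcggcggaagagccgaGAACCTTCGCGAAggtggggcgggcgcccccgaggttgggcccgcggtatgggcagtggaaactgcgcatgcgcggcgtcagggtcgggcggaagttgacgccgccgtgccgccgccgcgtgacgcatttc
HSPB1: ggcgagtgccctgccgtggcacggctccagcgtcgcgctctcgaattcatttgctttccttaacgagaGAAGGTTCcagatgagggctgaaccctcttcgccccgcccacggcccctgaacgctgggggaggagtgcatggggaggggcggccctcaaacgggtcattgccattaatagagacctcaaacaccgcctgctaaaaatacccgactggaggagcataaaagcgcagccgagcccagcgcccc

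The windows of HSPA1A and HSPA1B were alike at 235 of 251 aligned bases (93.6%) and hold the same element, GAATATTC, in each. HSPA8 holds the longer element at both ends of its window, GAAAGTTCCAGAA at -230 to -218 and TTCTGGAAGGTTC at -55 to -43, counted with the first transcribed base as 0. DNAJA1 holds the short element GAAGATTC upstream and the long element GAACTTTCCAGAA at 3 to 15, inside the transcribed part that is not printed. HSPB1, the member that rose, holds the short element GAAGGTTC at -182 to -175. The long element was found in 3 of 40 members (7.50%), HSPA8, DNAJA1 and DNAJB6, all of which fell, and in 0.330% of 8474 tested genes with a window (0.487% of 27305 promoters). The head-to-head element was found in 9 members (22.5%, against 4.33% of tested genes and 6.87% of all promoters). Of these 9, 5 fell and HSPB1 rose, and BAG2, TCP1 and PFDN6 were not called. Of the 31 members without a match to it, 4 fell and none rose. Each gene was searched by exact letters in a single window, so a missing match does not show that it lacks an element. The tail-to-tail element was found in 5 members (12.5%, against 5.79% of tested genes and 7.84% of all promoters), of which 3 fell. Among all 491 tested genes with the tail-to-tail element, 12.4% were called lower and 9.16% higher, against 9.76% and 11.1% of those without it. Among all 367 tested genes with the head-to-head element, 11.4% were called lower and 8.45% higher, against 9.84% and 11.1% of the 8107 genes without it. Among the 28 tested genes with the long element, 6 were called lower (21.4%, against 9.87% of those without it) and 3 higher, and 3 of these 6 were the members named above. The C/EBP-ATF response element, TGATGNAA, was in none of the 40 windows, against 1.49% of tested genes and 3.67% of all promoters, and CCAAT was in 12 (30.0%, against 37.8% and 35.7%). Elements were chosen with the changes known, and a match of letters is a description of the window.

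Of the 7 J-domain cochaperones, 2 fell, none rose, and 5 were not called. DNAJA1, a major partner of cytosolic HSP70, was at 114 and 108 FPKM in the controls and 94.98 and 93.8 FPKM after knockdown. The groups did not overlap, and the log2 fold change was -0.23 (standard error 0.058, limma adjusted p = 0.0324). GENCODE 44 lists 6 processed pseudogenes named after DNAJA1 and 7 named after DNAJB6. DNAJB6, which holds back protein aggregation, was at 41.2 and 41.3 FPKM in the controls and 34.7 and 33.01 FPKM after knockdown, a change of -0.28 (standard error 0.058, limma adjusted p = 0.0193). The difference lay in the row NM_058246, at 25.5 and 25.3 FPKM in the controls and 15.5 and 18.2 FPKM after knockdown. The other row, NM_005494, was at 15.8 and 16.0 FPKM and at 19.1 and 14.8 FPKM, and its groups overlapped. Tested as a row among 15795 transcript rows, NM_058246 had a value of -0.57 (limma adjusted p = 0.104), where 0.158% of rows were called.

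DNAJB1, the heat-inducible HSP40, was at 67.2 and 60.9 FPKM in the controls and 58.2 and 57.9 FPKM after knockdown. It lay on the side of the inducible HSP70 genes without overlap, but its change of -0.14 was not called (95% confidence interval -0.29 to 0.02, limma adjusted p = 0.179), except with libraries scaled to one total (-0.16, adjusted p = 0.048). It was -0.07 without control replicate 1 and -0.21 without control replicate 2 (adjusted p = 0.479 and 0.0668, limma). DNAJA2, a close relative of DNAJA1, was at 26.4 and 25.4 FPKM in the controls and 30.3 and 28.4 FPKM after knockdown (0.17, limma adjusted p = 0.0956). DNAJC7, which shuttles clients between HSP70 and HSP90, was at 69.03 and 67.7 FPKM and at 71.8 and 71.97 FPKM (0.07, limma adjusted p = 0.376). DNAJB4 was near 5.5 FPKM in all libraries, between 5.30 and 5.62. DNAJB2 was the lowest member, at 1.08 and 1.73 FPKM in the controls and with both knockdown values between these, with a wide interval of -0.44 to 0.30.

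BAG proteins are further exchange factors that couple HSP70 to degradation, and none of the 3 was called. BAG2, the most abundant of them, was at 32.2 and 31.7 FPKM in the controls and 32.97 and 36.3 FPKM after knockdown (0.11, limma adjusted p = 0.272). BAG3, a stress-inducible link between HSP70 and autophagy, was at 23.2 and 21.4 FPKM and at 24.2 and 24.5 FPKM (0.12, limma adjusted p = 0.224). BAG1 was at 13.7 and 11.8 FPKM in the controls and 11.4 and 11.1 FPKM after knockdown (-0.17, limma adjusted p = 0.194). These values rested on single libraries: BAG1 was -0.07 without control replicate 1 and -0.27 without control replicate 2, BAG2 was 0.18 and 0.04 without knockdown replicates 1 and 2 in turn, and BAG3 was 0.06 without control replicate 2. In all 3 the groups did not overlap, as in 64.8% of all genes tested, with BAG1 lower and the others higher.

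HSP90AB1, the constitutive cytosolic HSP90, was the most abundant member, at 1786 and 1684 FPKM in the controls and 1662 and 1621 FPKM after knockdown. Its difference of -0.08 was not called (95% confidence interval -0.24 to 0.08, limma adjusted p = 0.434), but was with libraries scaled to one total (-0.10, adjusted p = 0.0325). It was -0.04 without control replicate 1 and -0.12 without control replicate 2. HSP90AA1, the inducible form, was at 516 and 521 FPKM and at 489 and 492 FPKM, also -0.08 (95% confidence interval -0.21 to 0.06, adjusted p = 0.357). HSP90AB1 was 3.46 and 3.23 times as abundant as HSP90AA1 in the controls and 3.40 and 3.29 times after knockdown, and these ranges overlap.

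Among the 6 HSP90 cochaperones, FKBP4 fell and 5 were not called. FKBP4 (FKBP52), an immunophilin of steroid receptor complexes, was at 89.5 and 82.6 FPKM in the controls and 73.4 and 67.6 FPKM after knockdown. Its log2 fold change was -0.28 (standard error 0.069, limma adjusted p = 0.0311), without overlap. Its relative FKBP5 (FKBP51) was at 65.998 and 63.6 FPKM and at 59.1 and 60.6 FPKM (-0.11, limma adjusted p = 0.196). CDC37, which brings kinases to HSP90, lay on the other side, at 155 and 144 FPKM in the controls and 177 and 167 FPKM after knockdown. Its value of 0.20 was not called (95% confidence interval 0.05 to 0.36, limma adjusted p = 0.0709), but was under other settings, among them without control replicate 1 (0.25, adjusted p = 0.0456), with median-ratio scaling (0.19, adjusted p = 0.0385) and with scaling to one total (0.18, adjusted p = 0.0175). STIP1 (HOP), which joins HSP70 to HSP90, was at 216 and 199.6 FPKM and at 189 and 182 FPKM (-0.16, limma adjusted p = 0.112), and was called lower under both scalings (-0.18 and -0.19, adjusted p = 0.0349 and 0.0116) but was -0.11 without control replicate 1. PTGES3 (p23) and AHSA1, which act late in the HSP90 cycle, had values of -0.04 and 0.03 with adjusted p of 0.678 and 0.72 (limma).

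None of the 8 CCT subunits was called, and their levels kept close to each other. The highest, CCT7, was at 322 and 301 FPKM in the controls and 303 and 285 FPKM after knockdown (-0.09, limma adjusted p = 0.386). The lowest, CCT4, was at 186 and 179.6 FPKM and at 189.6 and 187 FPKM (0.04, adjusted p = 0.645). In FPKM, which is a level per length, the highest subunit was 1.73 and 1.68 times the lowest in the controls and 1.60 and 1.52 times after knockdown. CCT3 came nearest to a call and passed with a floor of 5 FPKM (limma adjusted p = 0.0466). It was at 285 and 274 FPKM in the controls and 249 and 239.96 FPKM after knockdown (-0.19, limma adjusted p = 0.0583). CCT2 and TCP1 followed with -0.14 each (adjusted p = 0.12 and 0.132, limma). For CCT8 the difference was -0.002 with an interval of -0.13 to 0.13. The summed level of the 8 subunits was 1933 and 1867 FPKM in the controls and 1815 and 1805 FPKM after knockdown. When libraries were scaled to equal totals CCT3, CCT2 and TCP1 were called lower (limma adjusted p = 0.00595, 0.0184 and 0.045), as were CCT3 and CCT2 with median-ratio scaling (adjusted p = 0.0183 and 0.0376).

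**Figure D4:**
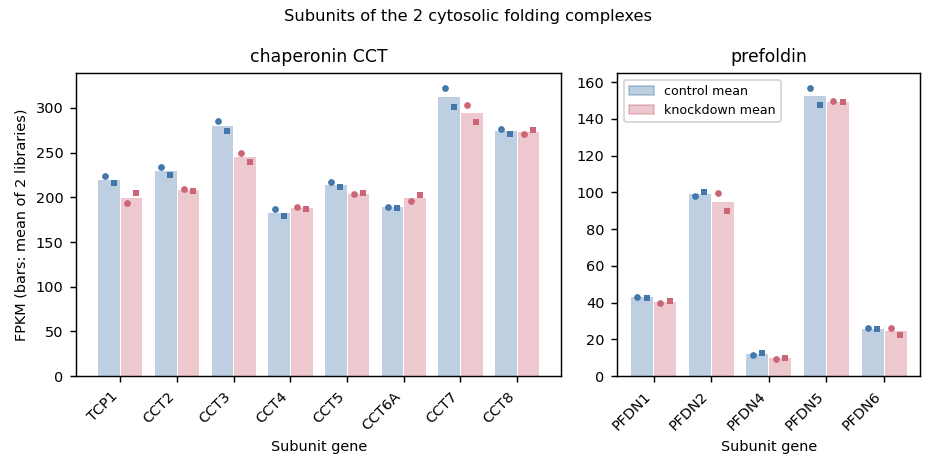
FPKM of the CCT subunit genes (left) and prefoldin subunit genes (right); bars are means of 2 libraries, blue for control and red for knockdown, and marks are single libraries (circles replicate 1, squares replicate 2). CCT subunits lie between 180 and 322 FPKM, while prefoldin subunits span from PFDN4 at 9.27 to 12.5 FPKM to PFDN5 at 148 to 157 FPKM.

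Prefoldin subunits, which act together in a fixed complex, differed more among themselves than those of CCT: the highest was 13.4 and 11.8 times the lowest in the controls and 16.1 and 14.8 times after knockdown. The lowest subunit, PFDN4, was the only called gene of the 5. It was at 11.7 and 12.5 FPKM in the controls and 9.27 and 10.1 FPKM after knockdown (-0.30, standard error 0.073, limma adjusted p = 0.0324). PFDN5, the highest, was at 157 and 148 FPKM in the controls and 149.6 and 149.1 FPKM after knockdown (-0.03, adjusted p = 0.775). PFDN1, PFDN2 and PFDN6 had values of -0.08, -0.07 and -0.09 with adjusted p from 0.344 to 0.517 (limma). PFDN2 was 0.01 without knockdown replicate 2 and -0.14 without knockdown replicate 1. PFDN6 was 0.009 and -0.19 in the same fits, and 0.37 by its most abundant transcript alone.

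The transcript rows of PFDN5 differed in direction. NM_002624, with 84.2% of the PFDN5 signal, was at 143 and 134 FPKM in the controls and 117 and 114 FPKM after knockdown. NM_145897, with 15.8%, was at 14.3 and 13.4 FPKM in the controls and 33.01 and 34.8 FPKM after knockdown. Both knockdown values lay above the controls for NM_145897 and below them for NM_002624. NM_145897 changed by 1.23 (standard error 0.069, limma adjusted p = 0.0432 over 15795 rows) and was the only row of any member that was called, while NM_002624 had a value of -0.26 (adjusted p = 0.13). Rows were chosen for display after their values were seen. How reads were divided between overlapping transcripts is not given in the sources used here.

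**Figure D5:**
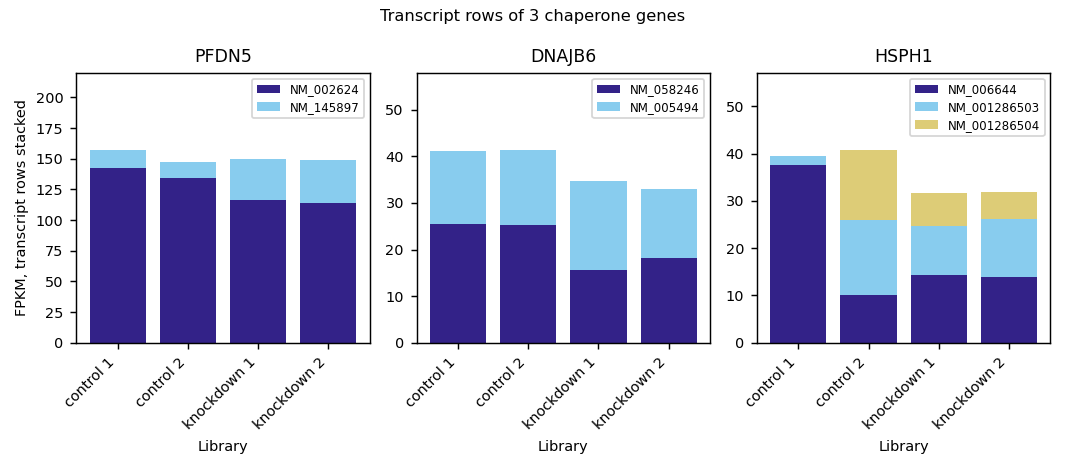
Transcript rows of PFDN5, DNAJB6 and HSPH1, stacked to the gene total in FPKM, for each library. In PFDN5 the light part goes from 13.4 to 14.3 FPKM in the controls to 33.01 to 34.8 FPKM after knockdown, in DNAJB6 the dark part is smaller in both knockdown libraries, and in HSPH1 the division differs between the control libraries, at 37.7 and 10.02 FPKM for the dark part.

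Of the 5 mitochondrial chaperones, HSPE1 fell and the other 4 were not called. HSPE1 (HSP10), the lid of the HSP60 chamber, was at 192.3 and 192.5 FPKM in the controls and 155 and 148 FPKM after knockdown. The mean fell from 192 ± 0.186 to 152 ± 5.17 FPKM (SD, n = 2 per group), a log2 fold change of -0.34 (standard error 0.057, limma adjusted p = 0.00941). HSPD1 (HSP60) itself was at 359.7 and 348 FPKM and at 339.6 and 337 FPKM, a difference of -0.07 (95% confidence interval -0.20 to 0.07, adjusted p = 0.44). RefSeq start sites of HSPD1 and HSPE1 lie 105 bases apart on opposite strands of chromosome 2, where the genes are known to share a promoter. The level of HSPE1 was 0.535 and 0.553 times that of HSPD1 in the controls and 0.457 and 0.439 times after knockdown. The ratios do not overlap between groups, and whether the changes of the 2 genes differ was not tested. GENCODE 44 lists 24 processed pseudogenes named after HSPE1 and 17 named after HSPD1, the highest numbers among members.

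HSPA9 (mortalin), the HSP70 of the mitochondrial matrix and import motor, was at 227 and 224 FPKM in the controls and 231 and 232 FPKM after knockdown. This is a difference of 0.04 with an interval of -0.09 to 0.17 (limma adjusted p = 0.628), and whether it differs from the changes of the cytosolic HSP70 genes was not tested. TRAP1, the mitochondrial HSP90, was at 167 and 156 FPKM and at 170.0 and 159.5 FPKM (0.03, adjusted p = 0.765, limma). DNAJA3, the J-domain partner of HSPA9, was at 27.5 and 24.4 FPKM and at 27.04 and 24.2 FPKM (-0.02, adjusted p = 0.893, limma). In both genes the groups overlapped.

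HSPB1 (HSP27), an ATP-independent chaperone that holds unfolded proteins, was the only member that rose. It was at 316 and 302 FPKM in the controls and 389 and 365 FPKM after knockdown, and the groups did not overlap. The mean rose from 309 ± 9.80 to 377 ± 16.8 FPKM (SD, n = 2 per group), a log2 fold change of 0.29 (standard error 0.063, limma adjusted p = 0.0226). The level of HSPB1 was 0.304 and 0.309 times that of HSPA8 in the controls and 0.473 and 0.438 times after knockdown. This ratio sets the member that rose over a member that fell, so it adds nothing to their separate changes.

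The heat shock factors themselves were not called. HSF1 was at 66.6 and 57.1 FPKM in the controls and 69.6 and 66.5 FPKM after knockdown, with overlapping groups and a wide spread between the controls. Its value was 0.14 (95% confidence interval -0.05 to 0.33, limma adjusted p = 0.259), and 0.25 (adjusted p = 0.0431) without control replicate 1 and 0.03 (adjusted p = 0.776) without control replicate 2. HSF2 was at 8.44 and 8.31 FPKM and at 8.95 and 8.55 FPKM (0.06, limma adjusted p = 0.591). RNA levels do not report the activity of these factors, which is set largely by the state of the protein.

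Other genes of the same folding pathways were read from a list of 106 names, of which 99 were in the table and 88 were tested. Of these 88, 11 fell and 4 rose (12.5% and 4.55%, against 9.99% and 10.9% of all genes tested), with a median log2 fold change of -0.03. These 15 calls became 6 without knockdown replicate 1 and 4 without knockdown replicate 2, and 24 with either scaling. PPP5C, NUDCD3 and TOMM34 were called whichever library was left out. HSP90 cochaperones gave 5 of the 15 calls among 15 genes tested. PPP5C, the phosphatase that docks on HSP90, was at 46.7 and 44.2 FPKM in the controls and 29.97 and 29.6 FPKM after knockdown (-0.59, limma adjusted p = 0.00199). NUDCD3 (-0.67), TTC4 (-0.46) and the cyclophilin PPID (-0.24) also fell (limma adjusted p = 0.00531, 0.00846 and 0.035), while TOMM34, which receives mitochondrial precursors from the cytosolic chaperones, rose from 24.6 and 23.3 FPKM to 31.7 and 34.8 FPKM (0.46, adjusted p = 0.00689, limma).

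Of 8 genes, 7 for the R2TP and TTT complexes, which assemble large kinases with HSP90, and the proteasome adaptor ECPAS, 6 were not called. RPAP3 of R2TP (-0.36) and TTI1 of TTT (-0.34) fell (limma adjusted p = 0.0192 and 0.0254), but RPAP3 was at 0.023 and not called by its most abundant transcript alone. Of 17 mitochondrial folding and quality control genes, DNAJC11 (-0.41), the disaggregase CLPB (-0.41) and prohibitin PHB (-0.28) fell (limma adjusted p = 0.0105, 0.019 and 0.0255), although CLPB was at -0.21 and not called by its most abundant transcript alone (adjusted p = 0.564), and GRPEL2, an exchange factor of mitochondrial HSP70, rose (0.30, limma adjusted p = 0.039). The proteases LONP1 and CLPP were not called (-0.14 and 0.12, adjusted p = 0.185 and 0.282, limma), though LONP1 was called lower with libraries scaled to one total (adjusted p = 0.0346). Leaving out each library in turn gave -0.07 to -0.21 for LONP1 and 0.03 to 0.21 for CLPP. Among 9 nascent chain and tubulin folding factors, BTF3 of the nascent polypeptide associated complex fell from 918 and 882 FPKM to 758 and 734 FPKM (-0.27, limma adjusted p = 0.0255), and BTF3L4 (0.30) and the tubulin cofactor TBCB (0.42) rose (adjusted p = 0.0228 and 0.0168). DNAJC14 (-0.21, adjusted p = 0.0489) was the only call among 22 further HSP70 and HSP40 genes. That call was lost with no floor, with no trend and by the most abundant transcript alone. It was also lost whichever library was left out, where the value was -0.20 to -0.23. Neither the 10 partners of chaperonin and prefoldin, the 2 small heat shock protein genes nor the 5 regulators that were tested held a call. VBP1, the prefoldin subunit outside the list of members, was at 52.3 and 58.2 FPKM and at 59.6 and 61.1 FPKM (0.13, limma adjusted p = 0.226). HSPA6, a strictly stress-inducible HSP70 gene, was under the floor, at 0.591 to 1.11 FPKM.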

How the data were processed

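RNA was measured in 2 control and 2 CEBPG knockdown libraries. In the study methods reads were filtered and mapped with HISAT, and the submitters' processing notes name HISAT2 2.0.5 and hg38. The authors deposited 1 table of FPKM per RefSeq transcript and library. The quantifier and annotation release are not given in the sources used here. Of 29265 entries, 183 without values and 164 without a symbol (0.250% of FPKM) were left out, and 28918 transcripts were summed to 16504 symbols. Low values did not fall on steps of whole reads (of 2572 single-transcript genes, the most common ratio of the control libraries made up 0.311%), so depth was unknown and no counting interval was given.

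Genes averaging 1 FPKM or more were compared on log2(FPKM + 1) with limma 3.58.1 under R 4.3.3 (empirical Bayes with a mean trend, no replicate block, 2-sided, Benjamini-Hochberg over all genes tested). A call is an adjusted p under 0.05, and log2 changes on this scale understate those of low genes. The code was tested on simulated data. The members, lists, naming rule and tests were chosen with earlier results of these data known. By that rule full statistics went to called members, the most abundant member of each role, HSPA1A, HSPA1B, HSF1 and HSF2, and called genes of the wider list were named. Values of other members were added after they were seen. Gene positions are from GENCODE 44 (hg38) and promoters from RefSeq (GRCh38.p14). Alternatives were a pseudocount of 0.1, no floor, a floor of 5 FPKM, a replicate block, no trend, 2 scalings, each library left out and the most abundant transcript. Single transcript rows and HSPA1A with HSPA1B summed were added after seeing the data.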

Additional observations from a re-analysis of the deposited data

How the results depend on the processing

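CEBPG was called lower in all 12 gene-level alternatives, and HSPA1A, HSPA1B and HSPA4 were too. Of the called values of CEBPG, the chaperones and the named genes of the wider list, that of RPAP3 changed sign, to 0.023 with the most abundant transcript (limma adjusted p = 0.946). The 2288 calls over all genes, 11 over the chaperones and 15 over the wider folding list became 882, 6 and 4 with no floor on low values. They became 579, 5 and 4 with the most abundant transcript in place of the sum, and 25, 1 and 0 with transcript rows one by one (limma, 3213 rows at an unadjusted p under 0.05). Scaling each library to one total gave 2676 calls over all genes, 46.7% of them higher (52.1% before), 18 chaperone calls, 16 lower and 2 higher, and 24 in the wider list, as did median-ratio scaling there (24). Leaving out each library in turn gave 809 to 1931, 3 to 10 and 4 to 14 calls, the lowest chaperone count without either knockdown replicate. With 1 library left in a group, that library is assumed to vary like the others. The labels give same-numbered libraries only the number in common. Their deviations correlated at 0.101 over all genes tested, which does not settle whether they were paired. The replicate block gave 3440, 17 and 33 calls, with CCT3, CCT2, TCP1, STIP1, CDC37 and DNAJA2 added among the chaperones. The causes of these shifts were not tested. FPKM without depth limits what can be said of DNAJB2 and other low genes.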
